A study of Equus caballus with 8 samples.

Results

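Basement membrane components were followed in horse BM-MSCs, the adherent stromal cell cultures (mesenchymal stem cells) started from bone marrow, with and without TGF-β2. The 10 genes were fixed by symbol, and all 10 were found among the 15266 named genes of the expression table. They encode the 2 common type IV collagen chains (COL4A1, COL4A2), the related collagens XV and XVIII (COL15A1, COL18A1), 3 laminin chains (LAMA4, LAMB1, LAMC1), both nidogens (NID1, NID2) and perlecan (HSPG2). Cells of 4 horses, labelled D, J, L and W, gave 1 untreated library and 1 library treated with 1 ng/ml human recombinant TGF-β2 each, 8 libraries in all. The untreated cultures grew in low glucose DMEM with foetal bovine serum, and the treated cultures differed by the added cytokine. The study's methods also list basic fibroblast growth factor in the medium of both. The labels give treatment from isolation to passage 3 or 4, and each horse is represented by 1 culture per condition. The study's methods state treatment over 3 passages before sequencing, of cells at passage 3 or 4. The study drew on Thoroughbreds and Thoroughbred crosses, with as many mares as geldings in each experiment. Its methods give an age range for all horses, but the age and sex of the single horses are not given in the sources used here.

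A basement membrane is the thin sheet of matrix that lies under epithelia and endothelia and wraps muscle, fat and nerve cells. Laminins, trimers of an α, a β and a γ chain, assemble at the cell surface, type IV collagen forms a second network of covalently linked trimers, and nidogens and perlecan connect both. Collagens XV and XVIII carry glycosaminoglycan chains and lie where basement membranes meet fibrillar matrix, and the C-terminal fragment of collagen XVIII is endostatin. In bone marrow, stromal and perivascular cells are a source of laminin α4, nidogens and type IV collagen around sinusoids. TGF-β is known to induce type IV collagen in mesenchymal cells.

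Between 39184554 and 57228675 reads were recovered per library, and the lowest read number of any of the 10 genes in any library was 478, for COL18A1. The 10 genes together accounted for 0.298% to 0.566% of reads without treatment and for 0.616% to 1.04% with it. Of the stromal markers, ITGB1 had 70290 to 85751 normalized counts without treatment and 116122 to 184270 with it, CD44 10325 to 17396 and 15296 to 21687, and THY1 24238 to 199815 and 7344 to 37850.1. THY1 fell in 4 of 4 horses, by 2.21 on the log2 scale (adjusted p from limma 0.00203), and its part in the results was not tested. Of 5 haematopoietic markers, 4 were listed, and their summed level was 492 to 2602 normalized counts in untreated and 387 to 712 in treated libraries, most of it from CD68. PTPRC, which encodes CD45, had at most 109.7 normalized counts. The 3 haematopoietic markers tested, PTPRC, CD68 and ITGAL, had log2 fold changes of -1.90, -0.77 and -0.42. None passed the test (adjusted p from limma 0.112, 0.0871 and 0.346). PTPRC was called lower by DESeq2 with the horse, and CD68 with every library scaled to the same total. Their part in the results was not tested.

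Of the 10 genes, 7 were higher after TGF-β2 treatment and 0 were lower. Over all 14907 genes tested, 6.83% were called higher and 7.31% lower, 14.1% in all. A call required a Benjamini-Hochberg adjusted p under 0.05 over all these genes and an absolute log2 fold change over 1, from limma with the horse as a block on log2(normalized count + 1). Without the horse as a block the same 7 genes were called higher and 0 lower, against 5.59% and 5.87% of all genes. DESeq2 and edgeR also called 0 lower, and NID1, the 1 gene with a negative log2 fold change, had an unadjusted p from limma of 0.0736. The median log2 fold change was 1.60 for the 10 genes and 0.0055 for all genes tested. Fold changes ran in the order COL4A1, COL15A1, LAMA4, COL18A1, COL4A2, NID2 and LAMB1 for the 7 called genes, followed by HSPG2, LAMC1 and NID1. In 6 genes every treated library lay above every untreated one, which held for 13.9% of all genes. In 0 they lay all below, which also held for 13.9%, so that the groups were apart in either direction for 27.8% of all genes. Of the 10 genes, 9 were higher in all 4 horses and 0 lower in all 4, which held for 26.3% and 25.6% of all genes. With an equal total set for every library, the median of all genes moved to -0.30 on the log2 scale, and LAMB1 and NID2 were then 0.79 and 0.95, short of the fold threshold.

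**Figure D1:**
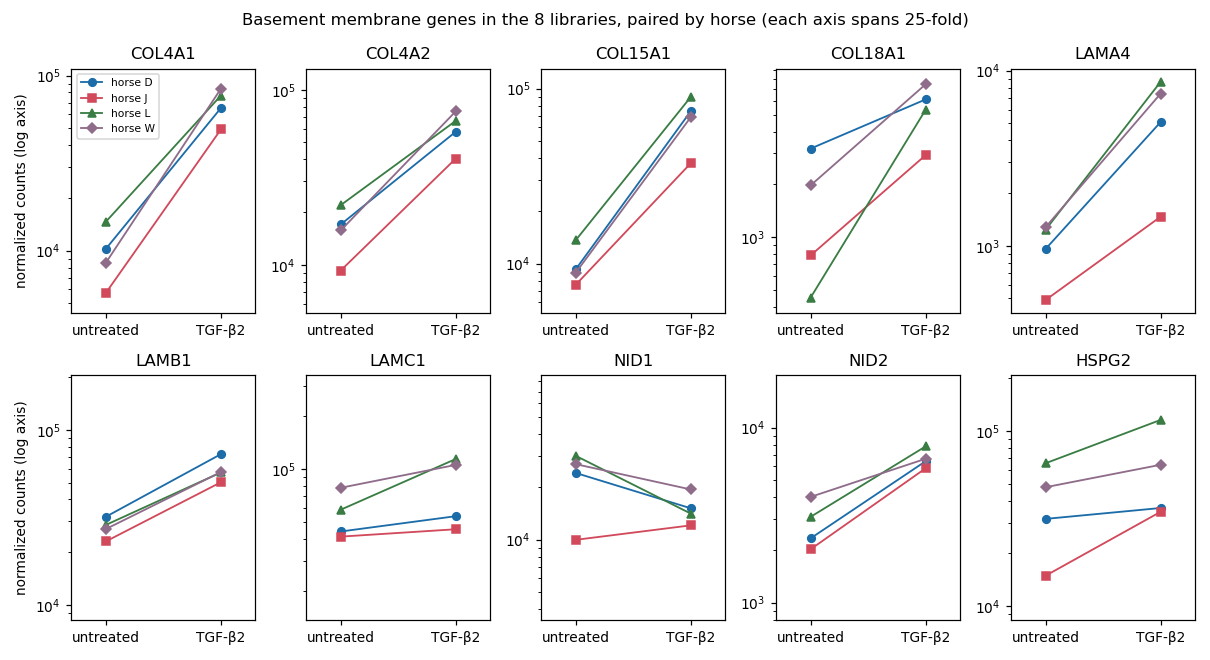
Normalized counts (log axis, each spanning the same fold range) of the 10 genes in the untreated and the TGF-β2-treated library of each horse, with a line joining the 2 libraries of a horse. The lines of COL4A1, COL4A2, COL15A1, LAMA4, LAMB1 and NID2 end above all untreated points, those of LAMC1 and HSPG2 overlap between groups, and NID1 goes down in 3 of 4 horses.

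COL4A1 and COL4A2 encode the α1 and α2 chains, which combine into the trimer found in nearly every basement membrane, and the genes are neighbours in the horse (RefSeq), as in other mammals, where they are transcribed in opposite directions from a shared promoter region. COL4A1 had 10211, 5718, 14591 and 8500.2 normalized counts in the untreated libraries of horses D, J, L and W. In the treated libraries it had 65107, 49152, 76749 and 83966. The lowest treated library thus lay well above the highest untreated one. The mean rose from 9755 ± 3718 (SD, n = 4) to 68744 ± 15197. The mean log2 change was 2.87 (standard error 0.17), which corresponds to 7.30-fold (95% interval 5.41 to 9.86), and the adjusted p from limma was 0.00122.

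COL4A2 had 16994, 9272, 21914 and 15718 normalized counts in the untreated libraries of D, J, L and W, and 57581, 40445, 66457 and 75299 in the treated ones. The groups again did not overlap, and horse J was lowest in both. The log2 fold change was 1.94 (standard error 0.14, adjusted p from limma 0.00167), and it ran from 1.60 to 2.26 between horses. In each horse COL4A1 changed more than COL4A2. The ratio of COL4A1 to COL4A2 normalized counts was 0.601, 0.617, 0.666 and 0.541 in the untreated libraries of D, J, L and W. In the treated libraries it was 1.13, 1.22, 1.15 and 1.12. The chain with the fewer reads was therefore α1 in every untreated library and α2 in every treated one. Normalized counts are not divided by transcript length, so the ratio itself is not a ratio of molecules, but its change does not depend on length or on the scaling of the library. The log2 ratio differed by 0.93 ± 0.11 (SD, n = 4 horses) between treated and untreated libraries, from 0.79 to 1.04 in single horses. An exact two-sided permutation test over the 8 libraries gave p = 0.0286, the smallest it can give, and 0.0571 after adjustment over the 6 ratios tested. That test does not use the pairing by horse. The exact paired sign-flip test gave p = 0.125, the smallest it can give, and 0.188 after adjustment.

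Both collagens of the endostatin family were called higher, with unequal spread between horses. COL15A1, a chondroitin sulphate-bearing collagen of the outer face of the basement membrane, had 9267, 7564, 13599 and 8864 normalized counts in the untreated libraries of D, J, L and W. After treatment it had 74185, 37434, 89518 and 68584. All 4 horses showed a large increase, from 2.31 in J to 3.00 in D on the log2 scale. The log2 fold change was 2.74 (standard error 0.14), or 6.70-fold, with an adjusted p from limma of 0.00101.

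COL18A1, a heparan sulphate-bearing collagen and the source of endostatin, had 3198, 784, 450.4 and 1971 normalized counts without treatment in D, J, L and W. With treatment it had 6109, 2937, 5336 and 7457. The untreated libraries spanned 7.10-fold and the treated ones 2.54-fold, and the untreated library of D lay above the treated library of J, so that the groups overlapped. The log2 change was 0.93 in D, 1.90 in J, 3.56 in L and 1.92 in W. The largest change was thus in the horse with the lowest untreated level and the smallest in the horse with the highest. Since the change is measured from the untreated level, the 2 are not independent, and a relation between them was not tested. The mean log2 fold change was 2.08 (standard error 0.41, adjusted p from limma 0.0167), with a 95% interval of 2.10 to 8.50-fold. The call was lost when horse W was left out, where the log2 fold change was 2.13 and the adjusted p from limma 0.0785. The log2 ratio of COL15A1 to COL18A1 differed by 0.66 ± 1.22 (SD, n = 4 horses) and from -0.85 to 2.07 in single horses (exact permutation p = 0.400, adjusted 0.480), so a difference between the 2 responses was not resolved.

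**Figure D2:**
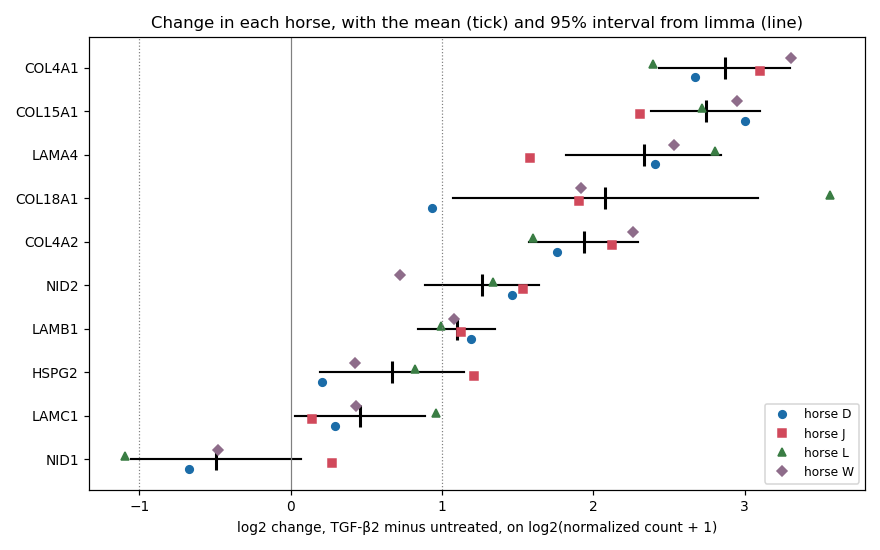
Log2 change from untreated to TGF-β2-treated cells in each horse (symbols), with the mean (tick) and its 95% interval from limma (line), for the 10 genes ordered by mean change. Dotted lines mark a log2 change of 1 in either direction. LAMB1 has the narrowest spread between horses and COL18A1 the widest, and only NID1 has a mean below 0.

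The 3 laminin chains together form laminin-411, the α4β1γ1 trimer typical of endothelial and stromal cells. LAMA4, the α4 chain, had 958, 489, 1234 and 1276 normalized counts in the untreated libraries of D, J, L and W and 5088, 1465, 8642 and 7396 in the treated ones. Every treated library exceeded every untreated one, although J reached only a low level. The log2 fold change was 2.33 (standard error 0.21), or 5.03-fold, with an adjusted p from limma of 0.00237. Its spread between horses was larger with treatment, 5.90-fold, than without, 2.61-fold.

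LAMB1, the β1 chain, had 31837, 23028, 28601 and 27099 normalized counts in untreated D, J, L and W, and 72577, 50153, 57063 and 57324 in treated cells. The increase was nearly the same in each horse. It ran from 1.00 to 1.19 on the log2 scale, with an SD of 0.0805. The log2 fold change of LAMB1 was 1.10 (standard error 0.10), or 2.14-fold, and the adjusted p from limma was 0.00278.

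LAMC1, the γ1 chain shared by most laminin trimers, had 43957, 41087, 58555 and 78122 normalized counts in untreated D, J, L and W, and 53771, 45278, 114096 and 105581 in treated cells. The untreated libraries of L and W lay above the treated libraries of D and J. Each horse had a higher value with treatment, by 0.14 to 0.96 on the log2 scale. The mean of 0.46 (standard error 0.17) did not pass the test, with an adjusted p from limma of 0.0975. The 95% interval was 1.02 to 1.85-fold.

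The chains were also compared within each library. The ratio of LAMA4 to LAMC1 normalized counts was 0.0119 to 0.0218 in untreated and 0.0323 to 0.0946 in treated libraries. The log2 ratio differed by 1.88 ± 0.32 (SD, n = 4 horses) (a 3.67-fold higher ratio) and was higher in 4 of 4 horses. The exact permutation p was 0.0286, again the smallest possible, and 0.0571 after adjustment over the 6 ratios. The exact paired sign-flip test gave p = 0.125, and 0.188 after adjustment. For LAMB1 against LAMC1 the log2 ratio differed by 0.64 ± 0.43, from 0.034 in L to 0.98 in J (exact permutation p = 0.229, adjusted 0.343). It was higher in 4 of 4 horses, and the exact paired sign-flip test gave p = 0.125, the smallest it can give.

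The nidogens, sulphated glycoproteins that bind the laminin γ1 chain and type IV collagen, had mean changes of opposite sign. NID1 had 24025, 9964, 30105 and 26972 normalized counts in untreated D, J, L and W and 15091, 12055, 14075 and 19333 after treatment. It was lower in D, L and W, by -0.67, -1.10 and -0.48 on the log2 scale, and higher in J by 0.27. J had the lowest untreated value. The mean log2 fold change of -0.49 (standard error 0.22) did not pass the test (adjusted p from limma 0.149), with a 95% interval from -1.05 to 0.066. Without J the log2 fold change was -0.75 (adjusted p from limma 0.0162), and with equal totals -0.81 (adjusted p from limma 0.0420), both short of the fold threshold.

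NID2 had 2329, 2017, 3091 and 4017 normalized counts in untreated D, J, L and W, and 6426, 5855, 7808 and 6634 with treatment. The groups did not overlap, and the treated libraries lay close together, within 1.33-fold. NID2 rose by 1.27 on the log2 scale (standard error 0.15, adjusted p from limma 0.00472), or 2.40-fold. The ratio of NID1 to NID2 normalized counts was 4.94 to 10.3 in untreated libraries and 1.80 to 2.91 in treated ones. It was lower in 4 of 4 horses, J included. The log2 ratio differed by -1.76 ± 0.62 (SD, n = 4 horses), with an exact permutation p of 0.0286, the smallest possible, and 0.0571 after adjustment over the 6 ratios. The exact paired sign-flip test gave p = 0.125, and 0.188 after adjustment.

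HSPG2 encodes perlecan, the large heparan sulphate proteoglycan that binds growth factors in basement membranes. It had 31530.1, 14932, 65563 and 47831 normalized counts in untreated D, J, L and W and 36387, 34620.4, 115938 and 64252 in treated cells. Horse L had the highest level in both conditions, and the groups overlapped widely. The log2 change was 0.21 in D, 1.21 in J, 0.82 in L and 0.43 in W. The mean was 0.67 (standard error 0.19), short of the fold threshold, and the adjusted p from limma was 0.0480 in the paired fit and 0.406 in the unpaired one. The 95% interval of the fold was 1.14 to 2.21. Against LAMC1, the log2 ratio of HSPG2 differed by 0.21 ± 0.58, and it was higher with treatment in 1 of 4 horses (exact permutation p = 0.629, adjusted 0.629).

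**Figure D3:**
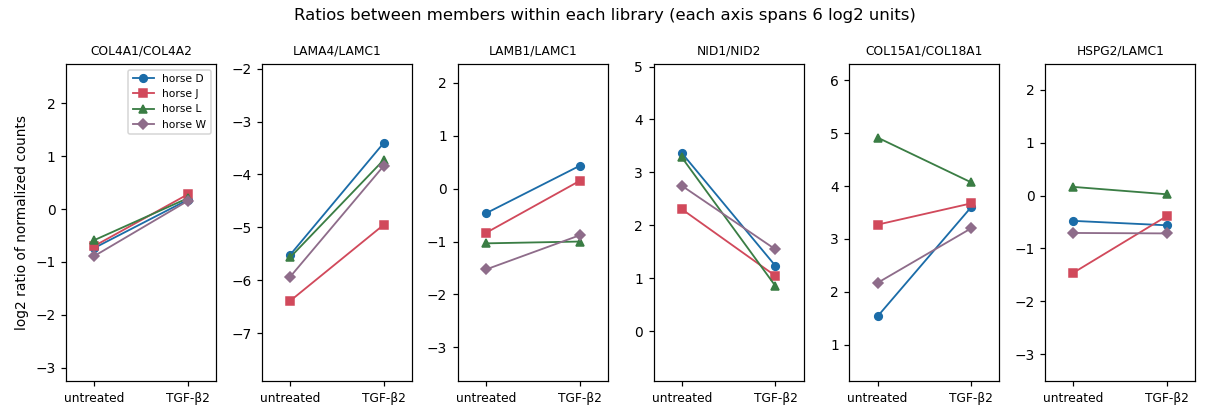
Log2 ratio of the normalized counts of 2 genes within each library, untreated and TGF-β2-treated, with a line for each horse and axes of equal length. The COL4A1/COL4A2 lines run in parallel from below to above 0, LAMA4/LAMC1 is higher and NID1/NID2 lower with treatment in all 4 horses, and the other 3 ratios overlap between groups.

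Horse J had the lowest untreated level in 9 of the 10 genes and the lowest treated level in 10 of 10. Over all genes tested, J was lowest in 35.8% without and 29.8% with treatment. The exception without treatment was COL18A1, which was lowest in L. All 7 calls were also made when J was left out, with log2 fold changes of the 10 genes in the same directions.

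Across the 8 libraries, COL4A2 and LAMA4 followed the mean of the other 9 genes with a Pearson r of 0.98 and 0.97, and COL4A1, COL15A1, NID2 and LAMB1 with 0.91 to 0.94. COL18A1, LAMC1 and HSPG2 had an r of 0.74, 0.68 and 0.67, and NID1 one of -0.12. These values describe 8 libraries that share the contrast between treated and untreated cells. The 5 other genes most like the mean of the 10 were PHF20L1, LTBP1, which encodes a latent TGF-β binding protein, COL11A1, LOC102148201 and USP54, with r of 0.989 to 0.992. An r does not measure the size of a change. The log2 fold changes of these 5 genes were 0.46, 1.70, 3.31, 1.28 and 2.49 in the same order, and that of PHF20L1 was below the fold threshold.

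Other chains of the laminin family were counted to place these 3. Of 8 chains, 7 passed the filter on low values, and 1 was higher and 1 lower, against 6.83% and 7.31% of all genes tested. The median log2 fold change of the 7 was 0.10. LAMC3, a γ chain, fell in every horse, from 123 to 879 down to 11.5 to 26.8 normalized counts (log2 fold change -3.74, adjusted p from limma 0.00303). LAMA1, the α chain of early embryonic basement membranes, stayed at few reads, 1.74 to 19.8 normalized counts against 10.7 to 73.6, and was called higher (log2 fold change 2.35, adjusted p from limma 0.0372). The call of LAMA1 was lost when D, L or W was left out, with adjusted p up to 0.148, while LAMC3 was called in each of the 4 fits. LAMA1 was not called without the horse as a block either (adjusted p from limma 0.0569). It passed the filter on low values through the treated libraries, and its log2 fold change depends on the pseudocount. With a filter at 50 normalized counts LAMA1 was not tested, and of the 5 chains left 0 were higher and 1 lower. Of the abundant chains, LAMA5 had a log2 fold change of 0.95 and LAMB2 one of -0.58, with adjusted p from limma of 0.0294 and 0.0153, both short of the fold threshold.

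Of 17 other basement membrane proteins, 12 were tested, of which 4 were higher and 5 lower. Over all genes tested, 6.83% were called higher and 7.31% lower. The median log2 fold change of the 12 was -0.85. SMOC2, a calcium-binding matricellular protein, rose from 1.74 to 14.2 up to 208 to 625 normalized counts (log2 fold change 5.83, adjusted p from limma 0.00226), whereas its paralogue SMOC1 fell from 3957 to 7784 down to 511 to 3550.04 (log2 fold change -2.19, adjusted p from limma 0.0372). SMOC2 passed the filter on low values through the treated libraries, and its log2 fold change depends on the pseudocount. FRAS1 and FREM1, partners in the complex that anchors the embryonic epidermis, went in opposite directions too, at low levels. FRAS1 had 0 to 9.42 normalized counts without treatment and 12.8 to 133 with it, so that it passed the filter on low values through the treated libraries, and FREM1 had 24.5 to 277 and 3.45 to 14.3. The log2 fold changes of 3.64 and -3.43 depend on the pseudocount, and neither gene was tested with a filter at 50 normalized counts. The netrins, laminin-related guidance proteins, were both lower, NTN1 by -3.02 and NTN4 by -1.21. NPNT, which encodes the integrin ligand nephronectin, fell by 4.10 on the log2 scale, TINAGL1 rose by 2.56 and FBLN2 by 1.06. AGRN, the other large heparan sulphate proteoglycan besides perlecan, had a log2 fold change of -0.49 that did not pass the test (adjusted p from limma 0.186). HMCN1, at 1.59, and FBLN1, at -1.43, did not pass it either (adjusted p from limma 0.0685 and 0.229). HMCN1 was called higher by DESeq2 with the horse and without L, and FBLN1 lower without J. Of the 12, 2 were higher and 2 lower without W, and 5 and 5 by DESeq2 with the horse. With single horses left out, SMOC2, FRAS1, FREM1 and NTN1 were called in all 4 fits, TINAGL1 without J or L, FBLN2 without D or J, SMOC1 and NPNT without J and NTN4 without L. FBLN2 and NTN4 were not called without the horse as a block, and FBLN2 was 0.75 when libraries were scaled to the same total.

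Of 5 tested genes for the folding, modification and cross-linking of collagen, 3 were higher and 0 lower. Over all genes tested, 6.83% were called higher and 7.31% lower. The median log2 fold change of the 5 was 1.99, and 3 were called higher in each alternative fit. PXDN encodes peroxidasin, which forms the sulphilimine cross-links between type IV collagen trimers. It rose from between 19866 and 24279 to between 133437 and 176931 normalized counts, by 2.71 to 2.87 on the log2 scale in single horses (mean 2.80, standard error 0.11, adjusted p from limma 6.77e-04). LOXL2, which also cross-links type IV collagen, rose by 2.63 and SERPINH1, the collagen chaperone HSP47, by 1.99. PLOD3 and COLGALT1, which modify collagen lysines, had log2 fold changes of 0.78 and 0.39 with adjusted p from limma of 0.0121 and 0.0339, below the fold threshold.

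The 10 tested receptors for laminin and type IV collagen had a median log2 fold change of -0.09. Of these, 1 was higher and 0 lower, against 6.83% and 7.31% of all genes tested. This was ITGA2, the α2 chain of a collagen- and laminin-binding integrin, which rose from 13.2 to 45.8 up to 494 to 830.02 normalized counts (log2 fold change 4.94, adjusted p from limma 0.00219). The common β1 chain ITGB1 and the collagen IV-binding ITGA1 had log2 fold changes of 0.91 and 0.61 with adjusted p from limma of 0.0159 and 0.0264, below the fold threshold, and DAG1, which encodes dystroglycan, one of 0.10. The other 6 were below 0 and did not pass the test, from -0.09 for ITGA3, -0.10 for ITGA6, -0.16 for DDR2 and -0.25 for DDR1 to -0.70 for ITGB4 and -1.55 for BCAM (adjusted p from limma 0.0618 and 0.132 for the last pair). The count of lower receptors was 1 with equal totals (ITGB4), with DESeq2 with the horse (BCAM) and without it, and without J (BCAM), where ITGB1 was also called higher. Among 6 enzymes of turnover, 2 were lower and 0 higher, against 7.31% and 6.83% of all genes tested. The median log2 fold change of the 6 was -0.36. HPSE, heparanase, which cuts heparan sulphate chains such as those of perlecan, fell from 20.01 to 55.8 down to 2.38 to 19.2 normalized counts (log2 fold change -2.44, adjusted p from limma 0.00669), and MMP9, a type IV collagenase, fell by 2.15. HPSE passed the filter on low values through the untreated libraries, and its log2 fold change depends on the pseudocount. With a filter at 50 normalized counts HPSE was not tested, and of the 4 enzymes left 1 was lower. MMP9 was called without J or L and not without D or W (adjusted p up to 0.0830). MMP2 had 36170 to 91664 normalized counts without treatment and 46962 to 74400 with it. Its log2 fold change of -0.17 did not pass the test (adjusted p from limma 0.723). Nor did MMP14, at -0.55, and CTSL, at 0.63 and few reads (adjusted p from limma 0.317 and 0.430). MMP14 was called lower without J. BMP1, which trims procollagens and laminin chains, was higher in 4 of 4 horses with a log2 fold change of 0.99 (adjusted p from limma 0.0176), just under the fold threshold, and was called higher without L.

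**Figure D4:**
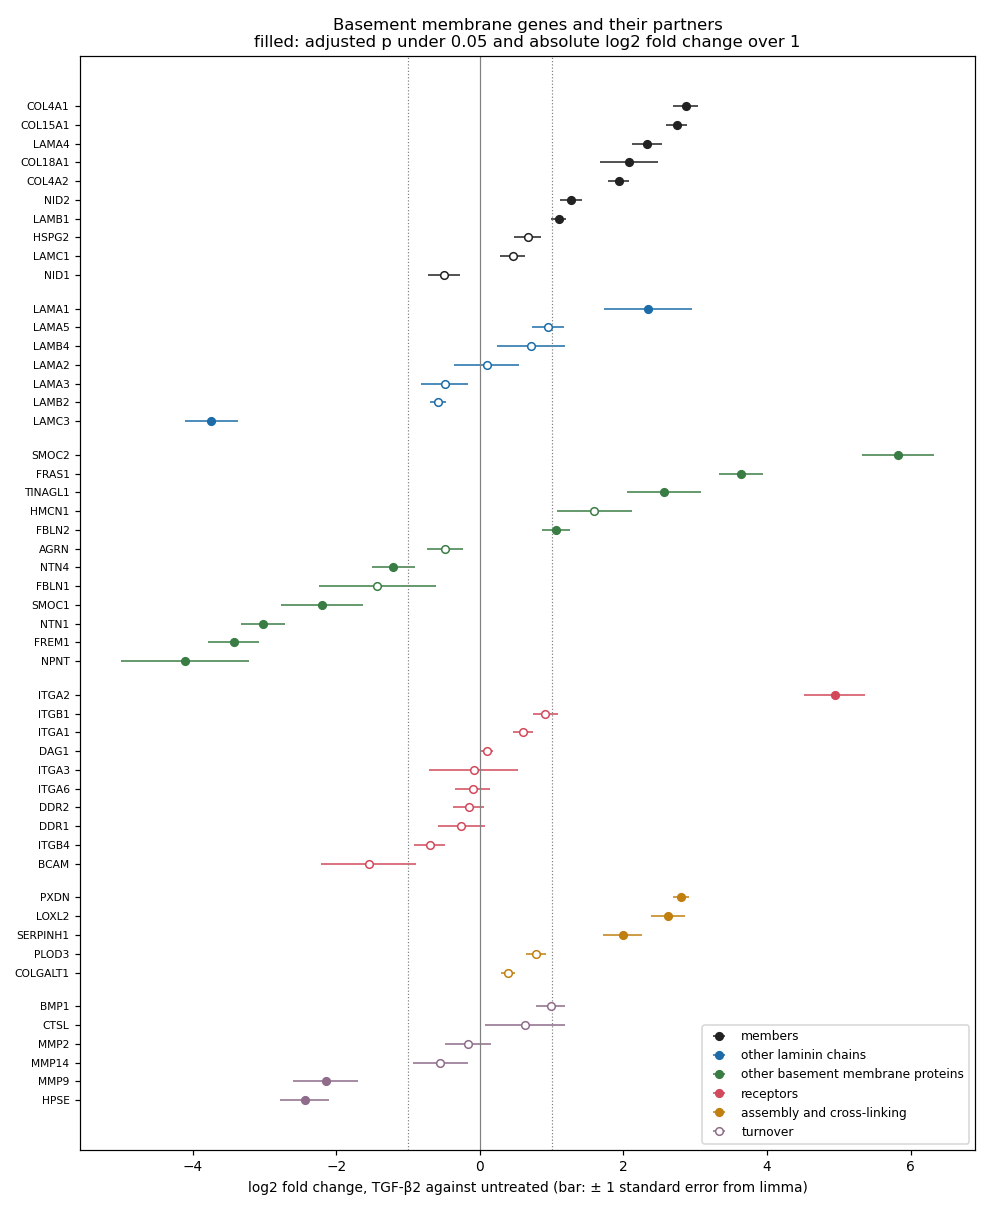
Log2 fold change (± 1 standard error from limma) of TGF-β2-treated against untreated cells for the 10 genes and for other tested laminin chains, basement membrane proteins, receptors, assembly and turnover genes. Filled symbols passed both thresholds. The 10 genes and the assembly genes lie mostly to the right, from -0.49 to 2.87 and from 0.39 to 2.80, while the other basement membrane proteins run from -4.10 to 5.83.

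Markers of other cells that make basement membrane moved with treatment in part. Of 6 endothelial markers, 2 were listed, and their summed level was 7.10 to 26.3 normalized counts in untreated and 30.04 to 55.7 in treated libraries. KDR rose from 1.01 to 14.8 up to 15.5 to 40.7 normalized counts, and CDH5 had 6.09 to 13.2 and 11.5 to 23.8. Both stayed at or under 40.7 normalized counts. KDR was not called without D. Of 6 smooth muscle and pericyte markers, 1 was higher and 1 lower, against 6.83% and 7.31% of all genes tested. Their summed level was 35442 to 170813 normalized counts without treatment and 196096 to 521610 with it. ACTA2, smooth muscle actin, made up most of this sum and rose by 2.27 on the log2 scale, while MCAM fell by 1.17, a call made with J left out but with no other horse left out, and not made without the horse as a block (adjusted p from limma 0.0957), and MYH11, RGS5, CSPG4 and NOTCH3 did not pass the test. The adipocyte markers ADIPOQ and LPL summed to 414 to 988 and 358 to 630 normalized counts. ADIPOQ was called higher (4.71 to 25.2 against 45.7 to 166.8) except without D, and LPL, at -0.67 on the log2 scale, did not reach the fold threshold. KRT8, the 1 epithelial marker listed of 5, went from 0 to 0.942 up to 39.3 to 122 normalized counts. KDR, ADIPOQ and KRT8 passed the filter on low values through the treated libraries. The part of these genes in the changes of the basement membrane genes was not tested. In cultured populations such as these, a change in the number of cells of a type and a change in RNA per cell cannot be told apart.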

How the data were processed

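RNA-seq was analysed from 4 untreated and 4 TGF-β2-treated libraries, grouped and paired by the horse named in the labels. The authors used Trimmomatic 0.36 for trimming and STAR 2.5.2b for alignment to EquCab 3.0, counted unique hits per gene with featureCounts (Subread 1.5.2) and deposited counts divided by a size factor per library, a signal and not whole counts. The annotation version and the strand setting are not given in the sources used here. RefSeq (assembly TB-T2T, used for symbols and neighbours, 10 of 10 members matched) places an uncharacterized lncRNA over COL4A2, so reads of both may not be separable.

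Values were divided by the value of 1 read in each library, and 100% came out whole within 0.01. Of 15267 rows, 1 without a gene name (0.0281% to 0.0531% of values) was left out. The filter, 10 normalized counts or more in 4 or more libraries, left 14907 genes, tested with limma 3.58.1 (trend, horse as a block) in R 4.3.3 on log2(normalized count + 1), which understates changes of low counts. Libraries of the same horse deviated together (correlations 0.386 to 0.609 across genes, against a mean of -0.16 for different horses). The authors' stated design names no donor term, and the fit without it is an alternative. Other alternatives were DESeq2 1.42.0 and edgeR 4.0.16 on recovered reads with the horse in the model, which called 2343 and 2059 genes, other pseudocounts, filters, scalings and thresholds, and leaving out each horse. Ratios were tested by exact permutation. Each horse gave 1 culture per condition. The paired p-values thus measure the spread between horses of the change within a pair of cultures. The unpaired ones measure the spread between cultures of a condition. Scripts were tested on simulated data.

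The members and lists, and the rule for named genes (the 10 members, any tested gene of the fixed lists, and the 5 genes most like the mean of the members, besides cell type markers), were chosen with earlier results of these data known. Of the other collagens listed, COL4A3 to COL4A6, COL7A1 and COL17A1 were not analysed here, nor were 5 of the other basement membrane proteins. Besides, 1 gene was left out of the lists and of their counts and is not reported here. Levels per transcript length, coordinates and sequences are not given, since an annotation or sequences of EquCab 3.0 were not used here.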

Additional observations from a re-analysis of the deposited data

How the results depend on the processing

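The number of the 10 genes called higher was 7 without the replicate block, the same genes as in the paired fit, and ran from 5, with every library scaled to the same total, to 8, with no fold change threshold, which added HSPG2. It was 6 at an adjusted p under 0.01, which left out COL18A1, and 6 to 7 with single horses left out. No alternative called any of them lower or turned the sign of a log2 fold change. Leaving out a horse moved the change of the HSPG2 to LAMC1 log2 ratio to between -0.08 and 0.33, below 0 without J, and that of COL15A1 to COL18A1 to between 0.20 and 1.17. Paired sign flips cannot give p under 0.125 with 4 horses, and gave this value for COL4A1/COL4A2, LAMA4/LAMC1, LAMB1/LAMC1 and NID1/NID2 (0.188 after adjustment). Over all genes, 2108 were called, against 1173 without D, 1080 without W, 1116 at an adjusted p under 0.01 and 4610 with no fold change threshold. Scaling to the same total gave 697 higher and 1832 lower, 27.6% higher against 48.3%. Depth limits none of the 10 genes, each with at least 478 reads in every library. LAMA1, SMOC2, FRAS1, KDR, ADIPOQ and KRT8, with few reads without treatment, and FREM1 and HPSE, with few reads with it, are less precise. The former passed the filter on low values through the treated libraries, and FREM1 and HPSE through the untreated ones.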
